A study of Mus musculus with 10 samples.

Results

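The nuclear-encoded subunits of the respiratory chain were examined in mouse RPE/choroid, that is, the pigmented epithelium under the retina with the vessel layer it rests on. Members were the protein-coding entries of the count table whose symbols start with Nduf followed by a, b, c, s or v, with Uqcr, with Cox4 to Cox8 or with Atp5, together with Sdha to Sdhd. This rule uses names alone, and found 96 of 55487 genes. They were divided into 37 subunits of complex I, 8 complex I assembly factors (the Ndufaf genes), 4 genes of complex II, 8 of complex III, 21 of complex IV and 18 of complex V. Ndufa4 was counted with complex IV, of which its product is known to be a subunit, and its paralogue Ndufa4l2 was placed beside it.

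Each group held 5 samples. The control mice carried iDTR, a Cre-dependent diphtheria toxin receptor inserted at the Gt(ROSA)26Sor locus of C57BL/6 mice, and their labels name no Cre. The ADQ mice carried iDTR with Adiponectin-Cre, whose promoter is active in fat cells, and the series asks what the loss of adipocytes does to this tissue. All 10 samples are labelled as given diphtheria toxin by intraperitoneal injection, and the series text gives daily injection over 7 weeks for the mice with Cre; the labels give neither the duration in control, nor age, nor how many eyes made a sample. They do not tie samples to separate mice either, and the p-values therefore describe the scatter among these 10 samples, some of which may be technical. Libraries held 43591245 to 64087660 counts. All 10 RPE markers listed were detected, and together they made up 28651 to 48749 CPM (counts scaled to a library of fixed size, with TMM factors) in the 10 libraries; in bulk tissue, fewer cells of a type and less RNA per cell cannot be told apart.

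The respiratory chain sits in the inner mitochondrial membrane. Complexes I and II pass electrons from NADH and succinate to coenzyme Q, complex III hands them to cytochrome c, complex IV passes them to oxygen, and complex V, the ATP synthase, uses the proton gradient that complexes I, III and IV build. The retinal pigment epithelium is known for its reliance on mitochondrial respiration, which spares glucose for the photoreceptors. Most subunits are encoded in the nucleus on short transcripts and are expressed together, and the factors NRF1 and GABPA (also called NRF2) are known to act at many of their promoters.

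Promoter sequence was looked at because the members varied together across libraries, as described below. RefSeq windows on GRCm38.p6 were found for 76 of the 95 distinct symbols. In the 250 bases before the start, the palindromic NRF1 motif, which is the run in capitals in the sequences that follow, was found in 5 of 81 member windows (6.17%) and in 0.782% of all 32851 windows. The 5 matches are shown with 25 bases on each side, 5′ to 3′ on the strand of the gene, with the motif in capitals; they lie 42 to 162 bases before the start.
Atp5g2, chr15:102671055-102671114, minus strand: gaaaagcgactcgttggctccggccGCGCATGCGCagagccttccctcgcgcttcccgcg
Atp5k, chr5:108434415-108434474, minus strand: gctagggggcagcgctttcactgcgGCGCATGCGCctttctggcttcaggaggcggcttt
Cox6a1, chr5:115349086-115349145, minus strand: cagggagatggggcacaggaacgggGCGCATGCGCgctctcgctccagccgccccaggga
Ndufa11, chr17:56717677-56717736, plus strand: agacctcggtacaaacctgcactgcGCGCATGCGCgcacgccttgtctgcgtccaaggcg
Ndufaf4, chr4:24897945-24898004, plus strand: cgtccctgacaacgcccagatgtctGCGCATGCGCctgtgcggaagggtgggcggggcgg

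Each of the other motifs searched, on both strands, was in 1 to 6 member windows. CCGGAAGT, a GABPA motif, was in 3 member windows (3.7%, against 2.88% of all windows). TCAAGGTCA, bound by estrogen-related receptors, was in 1 member window (1.23%, against 0.387%), as was the motif of YY1 (1.23%, against 0.301%). CAGCTG, an E-box of myogenic factors, was in 6 member windows (7.41%, against 13.0% of all), the MEF2 motif in 1 (1.23%, against 3.2%) and TACGTG of HIF1 in 1 (1.23%, against 2.72%). A match is only a run of letters and is no evidence of binding.

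Of the 96 members, 93 passed the filter on low counts and were tested. The testis isoforms Cox8c and Cox7b2 were at most 0.31 CPM in any library and were not tested. A second Ensembl entry named Atp5o (ENSMUSG00000116933, chromosome 16, 91684398 to 91926982) had 0 counts in every library, which allows up to 0.0468 to 0.0688 CPM by counting error alone. It overlaps the expressed Atp5o entry (ENSMUSG00000022956, 91925214 to 91931687) on the same strand, so the value of Atp5o is uncertain.

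Transcript levels were compared between genes as CPM per kilobase of the annotated principal transcript. Among structural subunits they spanned a wide range in control (means, n = 5). By principal transcript the highest were in complex IV: Cox8a, the ubiquitous subunit 8, at 1264 CPM per kb, Cox4i1, the ubiquitous subunit 4, at 1152 and Cox6a1, the ubiquitous subunit 6a, at 889. Atp5b, the catalytic beta subunit of ATP synthase, was at 856 CPM per kb, and Atp5a1, the alpha subunit that alternates with it in the F1 head, at 371. The order depends on the transcript length used: over the mean length of its annotated transcripts Atp5b was highest, at 1875 CPM per kb, above Cox4i1 (1423), Cox8a (1319) and Cox6a1 (852). In complex III the small subunits Uqcr10 and Uqcr11 were at 739 and 693 CPM per kb, above the core proteins Uqcrc1 (272) and Uqcrc2 (79.2) and the Rieske iron-sulfur protein Uqcrfs1 (121).

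Complex I subunits ran from 21.3 CPM per kb for Ndufab1, the mitochondrial acyl carrier protein, to 457 for Ndufa2, a small accessory subunit. The Ndufab1 value rests on a principal transcript of 3479 bases, and it was 75.8 CPM per kb over the mean length of its transcripts. Both ends of this range depend on the length used. Over mean transcript length Ndufb2 was lowest, at 27.3 CPM per kb, and Ndufa3 highest, at 517, with Ndufs1 at 58.2. Ndufs1, the largest core subunit, was at 28.2 CPM per kb, while the core subunits Ndufs7 and Ndufs8, which carry iron-sulfur clusters toward the quinone site, were at 423 and 233. In complex II the iron-sulfur subunit Sdhb was at 326 CPM per kb, the membrane anchors Sdhd and Sdhc at 192 and 59.7, and the flavoprotein Sdha at 132; over mean transcript length Sdha was the highest of these, at 496, with Sdhb at 325, Sdhd at 192 and Sdhc at 133. Assembly factors of complex I ran from 5.98 CPM per kb (Ndufaf4) to 65.5 (Ndufaf8).

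**Figure D1:**
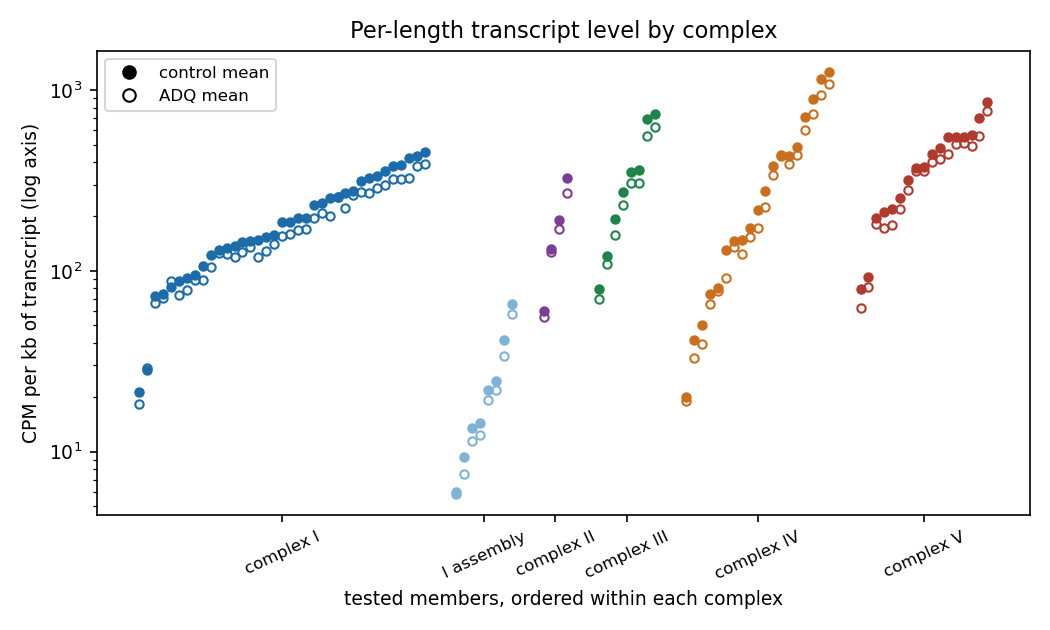
Mean CPM per kb of principal transcript (log axis) of each of the 93 tested members, filled for control and open for ADQ, ordered within each complex. The assembly factors of complex I, from 5.98 to 65.5 in control, lie below most structural subunits, and Cox8a is highest at 1264; over mean transcript length Atp5b would be, at 1875.

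The main comparison asked how the level of each member in ADQ differed from control. None of the 93 tested members passed with edgeR at an adjusted p of 0.05, against 0.827% of all 20684 genes tested (153 higher, 0.74%, and 18 lower, 0.087%). The members leaned to one side: 90 of 93 (96.8%) had a log2 fold change (ADQ over control) below 0, against 48.2% of all genes tested, and their median was -0.21 against 0.01. Unadjusted p was under 0.05 for 10 members (10.8%), all of them lower in ADQ, where 13.8% of all genes had such a p and 5.85% had it with a lower level. DESeq2 also called 0 members, where it called 3.26% of all genes, and limma's voom with quality weights called 2, Ndufs3 and Ndufa4l2, where it called 3.21% of all genes. The result also depended on the model. With the replicate number as a block, edgeR called 19 of the 93 members. In that fit 392 of all 20684 genes were called higher and 302 lower. The labels do not say whether equal numbers belong together. Together the 96 members made up 2.03 ± 0.182% of the counts of the control libraries and 1.86 ± 0.18% of those of the ADQ libraries (SD, n = 5).

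By complex, the medians lay close together and no member of any complex passed. For complex I the median log2 fold change was -0.22 with 35 of 37 members below 0, for complex III -0.23 with 8 of 8, complex IV -0.22 with 18 of 19 and complex V -0.19 with 17 of 17. Complex II, with 4 members, had the smallest median, -0.13, and the 8 assembly factors had -0.21, all of them below 0. Placing Ndufa4 and Ndufa4l2 with complex I, as their names would, left complex I at -0.22 and moved complex IV to -0.18. Differences between complexes were not tested.

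**Figure D2:**
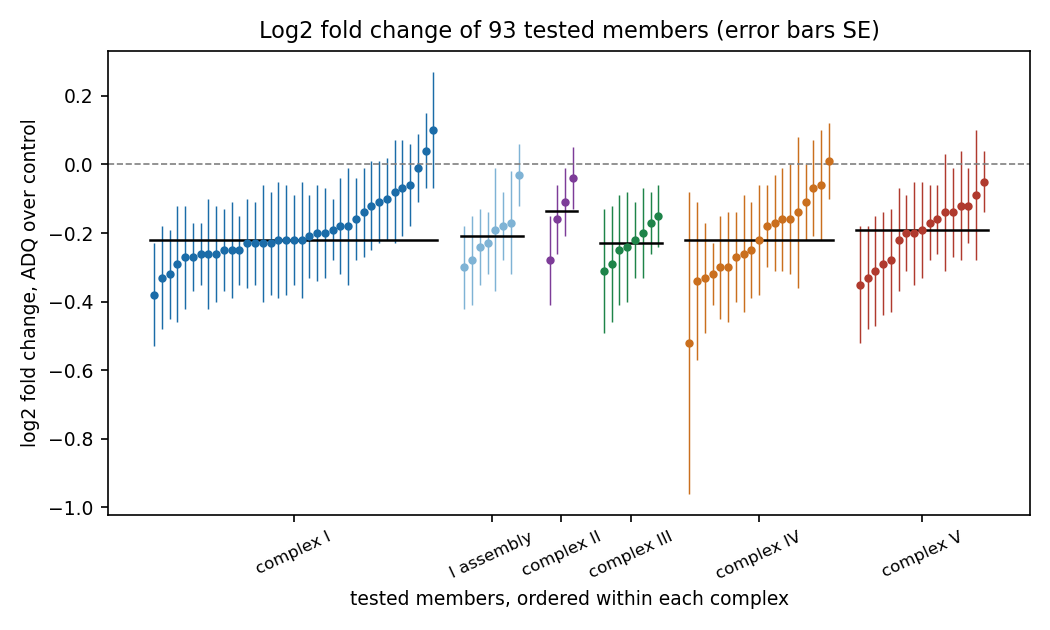
Log2 fold change, ADQ over control, with its SE (bars) for each of the 93 tested members, ordered within each complex; the black lines are medians. Of these, 90 lie below 0, and the medians run from -0.13 in complex II to -0.23 in complex III.

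The libraries of the groups overlapped widely. For each member the deviation of every library from the 10-library mean of that gene was taken on the log2 scale, and the median over members gives a value per library. Within the control group, control 1 stood at 0.34, control 5 at 0.22, control 4 at 0.15, control 2 at 0.05 and control 3 at -0.23. ADQ 1 was at 0.27, ADQ 5 at -0.10, ADQ 4 at -0.11, ADQ 2 at -0.13 and ADQ 3 at -0.42. ADQ 1 thus lay above 4 of the 5 controls, and control 3 lay below 4 of the 5 ADQ libraries. The pooled SD within groups was 0.23, about the size of the median difference of 0.21.

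Members kept to this library pattern with few exceptions. Control 1 was the highest library for 62 of the 93 members and ADQ 1 for 15, and ADQ 3 was the lowest for 76 and control 3 for 10. The complexes moved in step: in control 1 complexes I, III, IV and V stood at 0.35, 0.40, 0.32 and 0.40, and in ADQ 3 at -0.42, -0.49, -0.48 and -0.39. Complex II moved less, at 0.16 in control 1 and -0.36 in ADQ 3, as did the assembly factors at 0.27 and -0.25. Some genes departed from it. Ndufs1, Sdha, Sdhc, Atp5a1 and Atp5b were highest in ADQ 5, Ndufs1 was lowest in control 1 and Sdha was lowest in ADQ 1.

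Libraries also differed in a trend with transcript length. For each library the slope of the log2 deviation on log2 transcript length was fitted, with the longest annotated transcript, over 15279 tested protein-coding genes that are no members; a negative slope means that short transcripts were relatively high. The slope was -0.09 in control 1, -0.012 in control 2, 0.039 in control 3, -0.04 in control 4 and -0.075 in control 5. In ADQ 1 to 5 it was -0.096, 0.018, 0.165, 0.053 and 0.039. In each of the 10 libraries its sign was opposite to that of the members' median deviation. The slopes averaged -0.036 ± 0.052 in control and 0.036 ± 0.0932 in ADQ (SD, n = 5). They differed by 0.071 (exact two-sided permutation p = 0.183). Without ADQ 1, which had the lowest slope, p was 0.0476 in that test, and no other left-out library brought it under 0.05.

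**Figure D3:**
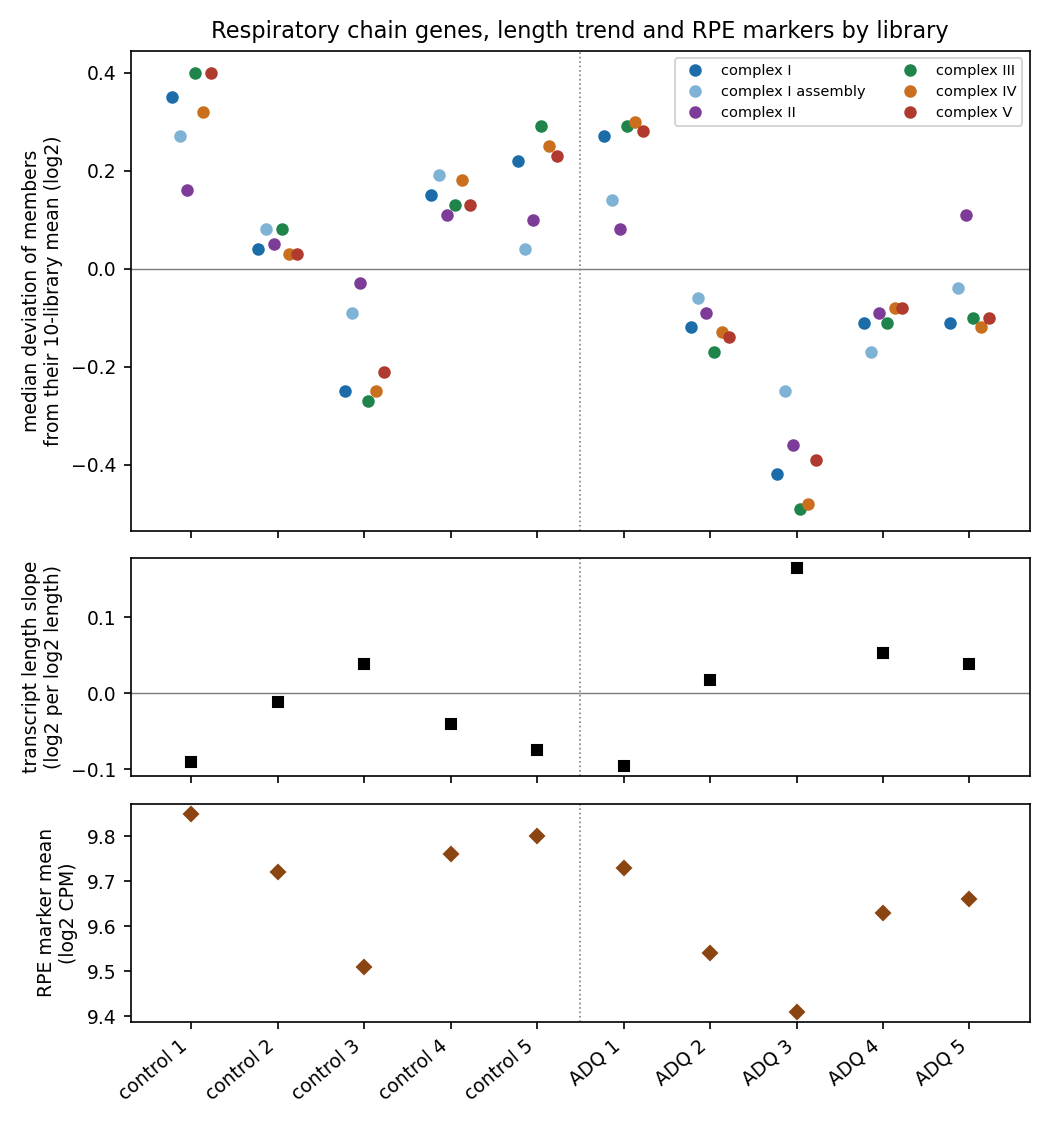
Top, the median deviation of the members of each complex from their 10-library mean (log2) in each library; middle, the transcript length slope of that library; bottom, the mean log2 CPM of 10 RPE markers. Control 1 and ADQ 1 lie high and ADQ 3 lies low in the top panel, and the slope, from -0.096 in ADQ 1 to 0.165 in ADQ 3, has the opposite sign to the median over all members in each library.

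Other short transcripts leaned the same way. Protein-coding genes under 1000 bases that are no members had a median of -0.17 in log2 fold change, 73.9% of 967 being below 0, beside -0.21 and 96.6% for the 58 tested members of that length. Between 1000 and 2000 bases the medians were -0.10 for other genes and -0.22 for 27 members, and from 2000 bases up they were 0.04 and -0.08 for 8 members. With the slope of each library as a covariate, the median over members was -0.01, 49 of 93 lay below 0, and 0 passed with edgeR. The median of complex I was then 0.01, of complex II -0.06, of complex III -0.01, of complex IV 0.02, of complex V -0.02 and of the assembly factors -0.07. Across the 93 members themselves, log2 fold change and log2 length were hardly related (Pearson r 0.074, Spearman rho 0.0157, given as a description, since the members share the same libraries).

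**Figure D4:**
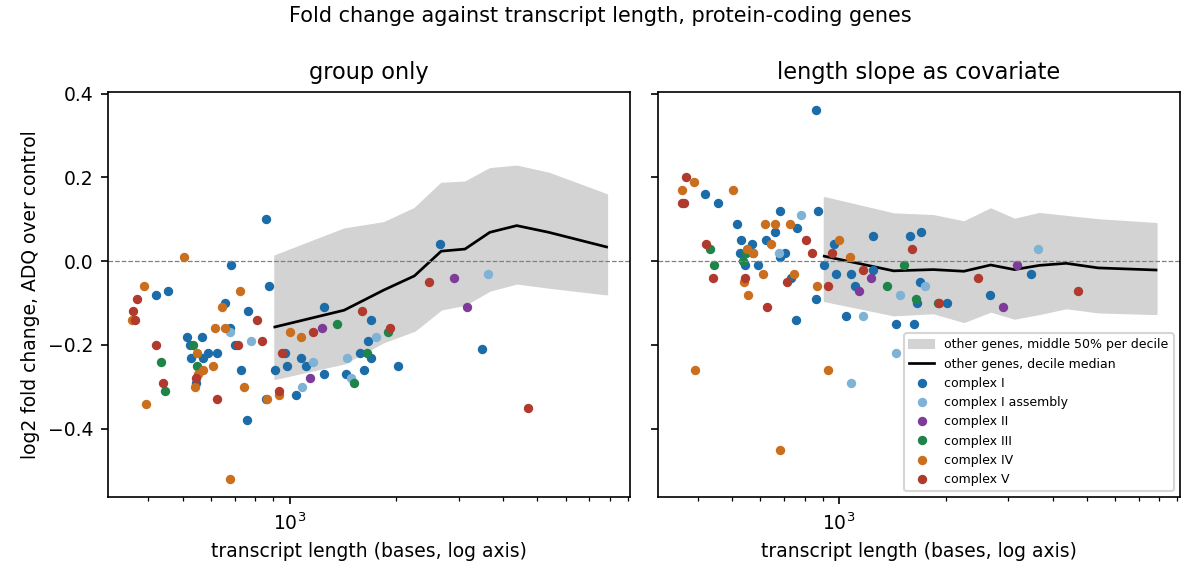
Log2 fold change against principal transcript length (log axis) for the 93 tested members (points) and for the other tested protein-coding genes in 10 length groups of equal size (line, median; band, middle 50%), without (left) and with (right) the length slope of each library as a covariate. The members' median goes from -0.21 to -0.01.

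RPE marker level had the same extremes. Its mean was highest in control 1 (9.85 log2 CPM) and lowest in ADQ 3 (9.41), and the groups averaged 9.73 ± 0.132 (control) and 9.59 ± 0.125 (ADQ; SD, n = 5 each; exact permutation p = 0.159, adjusted p = 0.306 over 11 marker lists); 8 of 10 RPE markers had a log2 fold change below 0. The RPE mean was 9.85, 9.72, 9.51, 9.76 and 9.80 in controls 1 to 5 and 9.73, 9.54, 9.41, 9.63 and 9.66 in ADQ 1 to 5. Libraries with a low length slope tended to have a high RPE mean, so these covariates cannot be told apart here. With the RPE mean as a covariate the median over members was 0.02, with 44 of 93 below 0. With skeletal muscle or rod marker level as covariate it was -0.25 and -0.23. Some marker lists of other cells differed more between the groups, and some less. The difference in mean log2 CPM was -0.03 for choroidal endothelium, -0.07 for melanocytes and 1.14 for rods (exact permutation p = 0.794, 0.516 and 0.167). Markers of corneal and conjunctival epithelium summed to 3.77 to 2261 CPM in control and 1.19 to 3.48 in ADQ (exact permutation p = 0.00794, adjusted p = 0.0873). The 8 macrophage markers summed to 1636 to 2135 CPM in control and 1703 to 2763 in ADQ (exact permutation p = 0.0159, adjusted p = 0.0873), 2 of the 8 being called higher with edgeR. Adipocyte markers summed to 78.3 to 243 CPM in control and 74.0 to 107 in ADQ, with 9 of 9 tested below 0, of which edgeR called 0 and 5 had an unadjusted p under 0.05. The part of other cell types, or of RPE content, in the members' values was not tested beyond the covariates named.

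In complex I, where NADH is oxidised, Ndufa9, an accessory subunit at the joint of the arms, was at 166, 149.9, 132, 157 and 169.9 CPM in controls 1 to 5 and at 140.1, 125, 108, 127 and 143 in ADQ 1 to 5. ADQ 1 and ADQ 5 lay within the control range and the other ADQ libraries below it (log2 fold change -0.27, SE 0.10, edgeR adjusted p = 0.258). Of the core subunits, Ndufs7 had -0.38 and Ndufs3 -0.32, while Ndufs8, Ndufv2 and Ndufv1, the flavin-binding subunit that takes electrons from NADH, had -0.25, -0.23 and -0.19. Ndufs1 was the core subunit above 0, at 0.04, with 60.4 to 83.7 CPM in control and 65.3 to 88.4 in ADQ. The 30 accessory subunits had a median of -0.21, with Ndufb1-ps, which despite its name is annotated as protein-coding, the one above 0 (0.10, SE 0.17).

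Among assembly factors, Ndufaf1 and Ndufaf6 were the members whose groups did not overlap, 2 of 93 (2.15%), where 1.07% of all genes tested had every ADQ library below every control library. No member had every ADQ library above every control library, as 2.09% of all genes did. Ndufaf1, which helps join the membrane arm of complex I, was at 21.5, 22.4, 19.7, 21.2 and 19.8 CPM in controls 1 to 5 and at 17.1, 17.0, 16.6, 18.9 and 19.4 in ADQ 1 to 5 (log2 fold change -0.23, SE 0.09, edgeR adjusted p = 0.264). The gap between its groups was narrow, from 19.4 in ADQ 5 to 19.7 in control 3. Ndufaf6 was at 9.3, 11.5, 8.97, 11.2 and 9.29 CPM in controls 1 to 5 and at 8.46, 8.73, 8.14, 7.34 and 8.06 in ADQ 1 to 5, with a log2 fold change of -0.30 (SE 0.12, edgeR adjusted p = 0.285). With the length covariate these kept the size of their difference, at -0.22 and -0.29, unlike most subunits. Ndufaf4 lay near its control level (-0.03).

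In complex II, which also works in the citric acid cycle, the subunits differed in order between libraries. Sdhb was at 407, 348, 295, 395 and 416 CPM in controls 1 to 5 and at 386, 303, 236, 300.1 and 311 in ADQ 1 to 5, the common pattern (log2 fold change -0.28, SE 0.13, edgeR adjusted p = 0.365). Sdha was at 340, 394, 412, 388 and 379.8 CPM in control and at 328, 365, 368, 365 and 433 in ADQ. Here control 1 was the lowest control and control 3, the lowest control for Sdhb, was the highest, and the log2 fold change was -0.04 (SE 0.09). Sdhd and Sdhc had -0.16 and -0.11.

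For complex III, the smallest p belonged to the core protein Uqcrc2, at 155, 154, 141, 149 and 151 CPM in controls 1 to 5 and 144, 124, 114, 137 and 147 in ADQ 1 to 5. ADQ 1 and ADQ 5 lay within the control range and the other ADQ libraries below it (log2 fold change -0.17, SE 0.09, edgeR adjusted p = 0.386). Uqcrc1 had -0.22 and the Rieske protein Uqcrfs1 -0.15. The small subunit Uqcr11 had the largest difference of the complex, -0.31.

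In complex V the smallest p belonged to Atp5h, subunit d of the peripheral stalk that holds the F1 head still. It was at 538, 419.5, 346, 442 and 443 CPM in controls 1 to 5 and at 453, 326, 255, 337 and 365 in ADQ 1 to 5, so that only ADQ 1 reached the middle of the controls (log2 fold change -0.33, SE 0.15, edgeR adjusted p = 0.333). Atp5b, the most abundant member by CPM, was at 1639.7 ± 78.6 and 1463 ± 179.6 CPM (SD, n = 5), and ADQ 5, at 1737, was its highest library. Atp5a1 was at 917 ± 23.3 and 887 ± 79.2 CPM, with a log2 fold change of -0.05. Atp5c1, the gamma subunit that turns inside the head, had -0.17.

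The c-ring of ATP synthase is built from 1 mature protein encoded by several genes. Atp5g3 averaged 402 ± 49.3 CPM (control) and 349 ± 46.2 CPM (ADQ), Atp5g1 at 375 ± 65 and 294 ± 76.2, and Atp5g2 at 92.9 ± 14.8 and 76.2 ± 16.3 (SD, n = 5). The ratio of Atp5g1 to Atp5g3 counts was 0.974, 0.902, 0.845, 0.994 and 0.925 in controls 1 to 5 and 1.02, 0.858, 0.685, 0.827 and 0.775 in ADQ 1 to 5. ADQ 3, 4 and 5 lay below every control in this ratio, ADQ 2 within their range and ADQ 1 above it. The log2 ratio differed by -0.17 (exact permutation p = 0.159, adjusted p = 0.556 over 7 isoform ratios). That of Atp5g2 to Atp5g3 differed by -0.09 (exact permutation p = 0.246, adjusted p = 0.574).

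Complex IV is the complex with isoforms restricted to some tissues, and 6 of the 8 listed here were detected well enough to test. Ndufa4l2, a paralogue of Ndufa4 induced by hypoxia (chromosome 10, 127514967 to 127517154), had the smallest p of all members. It was at 34.7, 39.6, 36.7, 41.8 and 39.4 CPM in controls 1 to 5 and at 35.5, 32.7, 29.1, 29.3 and 27.5 in ADQ 1 to 5. ADQ 1 lay within the control range and the other ADQ libraries below it. The log2 fold change was -0.32 (SE 0.09, edgeR adjusted p = 0.135, and 0.0702 to 0.321 without 1 library), and -0.26 with the length covariate. Its ratio to Ndufa4 differed little between groups (log2 difference -0.07, exact permutation p = 0.651, adjusted p = 0.651).

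The muscle isoforms Cox6a2 and Cox7a1, of heart and skeletal muscle, departed from the common library pattern. Cox6a2 was at 53.1, 81.2, 85.1, 119 and 106 CPM in controls 1 to 5 and at 74.4, 78.5, 53.8, 88.8 and 14 in ADQ 1 to 5. Its lowest library was ADQ 5 and its highest control 4, while the ubiquitous Cox6a1 was lowest in ADQ 3 (298 CPM) and highest in control 1 (621). The log2 ratio of Cox6a2 to Cox6a1 differed by -0.44 (exact permutation p = 0.548, adjusted p = 0.639), and by 0.05 without ADQ 5. Cox7a1 was at 15.7, 21.0, 19.2, 25.4 and 17.3 CPM in controls 1 to 5 and at 18.9, 17.9, 12.1, 20.9 and 8.03 in ADQ 1 to 5, again lowest in ADQ 5 and highest in control 4, and its log2 ratio to Cox7a2 differed by -0.24 (exact permutation p = 0.484, adjusted p = 0.639).

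Skeletal muscle markers had the same extremes. Their mean was 7.14 log2 CPM in control 4 and 4.44 in ADQ 5, where the remaining controls had 6.02 to 6.90 and the remaining ADQ libraries 6.20 to 6.77; summed, the 12 markers ran from 1577 to 3721 CPM in control and from 511 to 2669 in ADQ. With the muscle marker level as a covariate the log2 fold change of Cox6a2 went from -0.52 to -0.10 and that of Cox7a1 from -0.34 to -0.11. Markers of cardiac and slow muscle were low, at 13.1 to 18.9 CPM summed over the list, of which Tnnt1 alone averaged 10.1 CPM in control and 10.2 in ADQ.

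Cox8b, which is also counted as the heart and skeletal muscle form of subunit 8, did not share these extremes. It was at 165, 147, 103, 194 and 171 CPM in controls 1 to 5 and at 221, 124, 92.5, 123 and 145 in ADQ 1 to 5. ADQ 5, where Cox6a2 was at 14 CPM, lay inside the control range. Its level per length, 433 CPM per kb in control, was above that of Cox6a2 (131) and Cox7a1 (50.2), and its counts were 0.198 to 0.274 of those of Cox8a in all 10 libraries. The log2 ratio to Cox8a differed by 0.06 (exact permutation p = 0.548, adjusted p = 0.639). The 250 bases before the starts of Cox8b and the ubiquitous Cox8a are shown, 5′ to 3′ on the minus strand. They were chosen because the levels of Cox8b set it apart from the other muscle isoforms. Capitals mark the CAGCTG motif, and the Cox8a window holds none of the motifs searched. Nor does the window of Cox7a1 hold any of them.
Cox8b, chr7:140900447-140900696: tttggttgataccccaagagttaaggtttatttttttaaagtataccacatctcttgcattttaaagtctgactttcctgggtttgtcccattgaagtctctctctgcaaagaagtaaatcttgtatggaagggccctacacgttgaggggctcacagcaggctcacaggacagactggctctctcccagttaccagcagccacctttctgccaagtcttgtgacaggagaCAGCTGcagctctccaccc
Cox8a, chr19:7217617-7217866: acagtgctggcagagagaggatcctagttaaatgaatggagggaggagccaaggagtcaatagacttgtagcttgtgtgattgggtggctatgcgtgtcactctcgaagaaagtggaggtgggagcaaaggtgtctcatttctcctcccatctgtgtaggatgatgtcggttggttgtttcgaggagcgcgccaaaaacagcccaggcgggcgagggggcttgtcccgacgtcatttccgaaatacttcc

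Of the remaining restricted forms, Cox6b2 kept to the common pattern. Cox6b2, a subunit best known from testis, was at 98.4, 78.5, 62.5, 90.7 and 83.2 CPM in controls 1 to 5 and at 83.3, 65.7, 53.7, 70.4 and 68.6 in ADQ 1 to 5, highest in control 1 and lowest in ADQ 3 (log2 fold change -0.27, SE 0.13, edgeR adjusted p = 0.369). Cox4i2, the form of subunit 4 found in lung and vascular cells, was at 13.7, 15.3, 11.0, 16.1 and 17.0 CPM in controls 1 to 5 and at 17.2, 14.7, 11.6, 13.4 and 12.6 in ADQ 1 to 5, the groups covering the same range. Its counts were 0.0134 to 0.0197 of those of Cox4i1 in control and 0.0171 to 0.0227 in ADQ (log2 difference 0.23, exact permutation p = 0.0952, adjusted p = 0.556). Pericyte and smooth muscle markers had means of 5.90 and 6.12 log2 CPM (exact permutation p = 0.0476, adjusted p = 0.175); their part in this ratio was not tested.

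**Figure D5:**
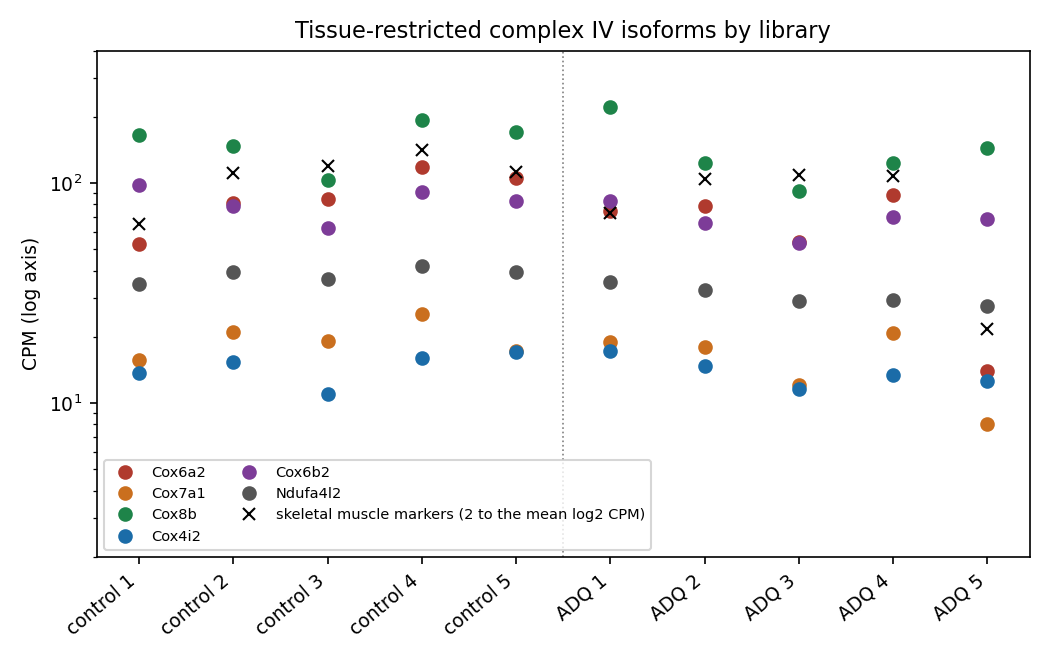
CPM (log axis) of 6 tissue-restricted complex IV genes in each library, with the mean level of 12 skeletal muscle markers (crosses). In ADQ 5 Cox6a2 (14 CPM), Cox7a1 (8.03 CPM) and the muscle markers lie at their lowest, while Cox8b (145 CPM) does not.

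Ubiquitous complex IV subunits had a median log2 fold change of -0.20, with 11 of 12 below 0. Cox4i1 was at 1024, 778, 625, 894 and 969 CPM in controls 1 to 5 and at 941, 654, 511, 655 and 735 in ADQ 1 to 5, and showed the common pattern in full (log2 fold change -0.30, SE 0.16, edgeR adjusted p = 0.433). Cox5b, the zinc-binding subunit, had -0.33, and its retrocopy Cox5b-ps, with which it may share reads, -0.06. Cox5a, which sits beside Cox4i1 on the matrix side, had -0.11, and the small subunits Cox6a1, Cox6b1, Cox7a2, Cox7a2l and Cox7b had -0.26, -0.16, -0.16, -0.18 and -0.17, each highest in control 1, control 5 or ADQ 1 and lowest in ADQ 3. Cox8a was at 435 to 835 CPM over the 10 libraries (log2 fold change -0.22). Cox6c was the subunit above 0, at 0.01.

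Other genes of the pathway were read from the same fit, and none passed with edgeR in any list given here. The subunit cytochrome c1 (Cyc1), which the naming rule misses, was at 303 ± 30.7 and 247 ± 40 CPM, and Cycs, cytochrome c itself, at 73.5 ± 7.11 and 62.8 ± 9.44 (log2 fold changes -0.30 and -0.23). Of 13 genes of coenzyme Q synthesis, 10 were below 0 and 7 had an unadjusted p under 0.05, against 13.8% of all genes. Coq8a, an atypical kinase of that pathway, was at 93.0 ± 13.4 and 69.4 ± 3.82 CPM (log2 fold change -0.42, edgeR adjusted p = 0.0734, and 0.0418 to 0.181 without 1 library). Its groups did not overlap, as for 1.07% of all genes, but the gap was narrow, from 75.6 CPM in ADQ 2 to 75.8 in control 1. Of 13 citric acid cycle genes 10 were below 0 (median -0.12), with Fh1, fumarase, at -0.26 (edgeR adjusted p = 0.195). The groups of Fh1 did not overlap either, at 93.8 CPM in the lowest control and 91.1 in the highest ADQ library. Complex IV assembly factors had 12 of 20 below 0 (median -0.10), with Coa5 at 0.34 (edgeR adjusted p = 0.229). The lists for assembly of complexes I (outside the rule), II, III and V had medians of -0.15, -0.07, -0.12 and -0.11; the gene of smallest p in each was Ecsit (-0.20), Sdhaf2 (0.07), Lyrm7 (0.68) and Atp23 (-0.25), with edgeR adjusted p of 0.332, 0.732, 0.403 and 0.419.

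Regulators of mitochondrial biogenesis, with long transcripts, had a median of 0.12 with 5 of 13 below 0, and of -0.00 with 7 of 13 below 0 with the length covariate. The smallest p among them was that of Gabpb1, a partner of GABPA (log2 fold change 0.36, edgeR adjusted p = 0.268). Ppargc1a, the coactivator PGC-1alpha, was at 30.3 ± 3.3 and 33.5 ± 5.65 CPM, Nrf1 at 23.5 ± 3.86 and 25.6 ± 2.88, and Tfam, which packages mitochondrial DNA, at 20.6 ± 1.14 and 22.5 ± 1.55 (SD, n = 5). The 13 subunits encoded by mitochondrial DNA had a median of -0.21 with 9 below 0, and of 0.16 with 0 below 0 with the length covariate; mt-Atp8 had the smallest p (log2 fold change 0.54, edgeR adjusted p = 0.446), and mt-Co1, the catalytic subunit of complex IV, was at 2646 ± 505 and 2281 ± 436 CPM (edgeR adjusted p = 0.546). The mitochondrial ribosomal proteins, 77 tested, had a median of -0.19 with 74 below 0 (smallest p Mrpl37, -0.30, edgeR adjusted p = 0.208). For 99 genes named for cytosolic ribosomal proteins it was -0.18 with 83 below 0 (smallest p Rps2, -0.36, edgeR adjusted p = 0.306). With the length covariate these medians were -0.01 (42 below 0) and 0.07 (25 below 0).

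The authors' deposited table lists 93 members, and 3 of them pass its adjusted p at 0.05, all lower in ADQ, where 1.63% of its genes are called lower and 5.42% in either direction. Among them are Ndufa4l2 (log2 fold change -0.36, adjusted p = 0.0205) and Ndufs3 (-0.38, adjusted p = 0.035) in the authors' deposited table. These had an edgeR adjusted p of 0.135 and 0.287 here. Of the members in the authors' deposited table, 90 have a value below 0, and their median is -0.24.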

How the data were processed

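RNA was measured in 5 control and 5 ADQ samples of the RPE/choroid complex, grouped and numbered by their titles. Per the labels' protocols, RNA came from TRIzol lysates and NucleoSpin columns, with SMARTer amplification of cDNA. GRCm38, bcl2fastq, DRAGEN, edgeR and limma are listed in the submitters' processing notes; the sources used here do not give how reads were counted, strand included. The deposited table holds raw counts per Ensembl gene, 55774 rows of which 287 repeats were removed. The authors' deposited table of the comparison holds log2 CPM values, log2 fold changes and p-values, used as given.

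Counts of all genes were tested with edgeR 4.0.16 (R 4.3.3): filterByExpr (minimum count 10, total 15), TMM scaling, a robust quasi-likelihood fit on group and Benjamini-Hochberg adjustment over 20684 genes at 0.05. CPM values are TMM-scaled; list means and deviations use log2 CPM with prior count 2. The SE was taken as the size of the log2 fold change divided by the root of F. Single values were compared by exact two-sided permutation over libraries. Lengths and positions come from GENCODE M21 (GRCm38), which covers 99.5% of identifiers. Alternatives were other scalings, filters, DESeq2 1.42.0, voom (limma 3.58.1), each library left out, a replicate block and covariates for length slope, muscle, rod and RPE markers. On simulated data the fit recovered 37.3% of 1.5-fold, 74.6% of 2-fold and 87.9% of 4-fold changes, with 5 false calls. The changed genes were drawn at random from expressed genes of the whole data set and simulated independently, so these shares are not those of the members. The largest difference of a tested member was 1.44-fold (Cox6a2). Changes below 1.5-fold were not simulated and may be missed. Amplified reads without molecular identifiers are not independent molecules, so limits from counts cover counting error only.

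Members and lists were chosen with earlier results of these data known. Named genes were the 2 members of smallest p and the highest and lowest per-length level in each complex, fixed lists of core subunits and isoforms, any gene called, and the gene of smallest p in other lists; further members, Cycs, Ppargc1a, Nrf1, Tfam and mt-Co1 were added after their values were seen. The values of 1 member are not reported here.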

Additional observations from a re-analysis of the deposited data

Results flagged for a closer look

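Each quantity was checked within control and within ADQ for a library whose gap to its neighbour took up most of the range, and 5 of 144 such checks found one, where chance alone gives about 1 in 20. Atp5a1 was at 1026 CPM in ADQ 5, against 829 to 866 in the other ADQ libraries. The log2 ratio of Cox6a2 to Cox6a1 was -4.95 in ADQ 5, against -2.97 to -2.17, and the mean of skeletal muscle markers in that library was 4.44 log2 CPM, against 6.20 to 6.77. Rod photoreceptor markers had a mean of 6.45 log2 CPM in control 1, against 4.00 to 4.27 in the other controls. It was higher still in ADQ 4 (6.81) and ADQ 5 (7.35). Cox8c was at 0.117 CPM in ADQ 2 and at 0 in the other ADQ libraries.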

How the results depend on the processing

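No member passed with edgeR under any scaling, filter, covariate or left-out library tried. With the replicate number as a block 19 of 93 did, where 392 of all 20684 genes were called higher and 302 lower. Of the 93, 81 to 92 were below 0 except with the length covariate (49) and the RPE covariate (44). The latter moved the medians to 0.01 (complex I) and 0.02 (IV) with length, and to 0.03 (I), -0.05 (I assembly), 0.01 (III), 0.04 (IV) and 0.02 (all members) with RPE markers. Without scaling factors the median of all genes was 0.10, against 0.01 with TMM. voom called 1 member of complex I (Ndufs3, adjusted p = 0.0497) and 1 of IV (Ndufa4l2, adjusted p = 0.0296).

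Over all genes, the counts higher and lower in ADQ were 153 and 18, against 502 and 266 with DESeq2 and 511 and 153 with voom. The count of lower genes was 32 with no filter, 41 with a non-robust fit, 38 with the length covariate and 28 with the RPE covariate. Leaving out 1 library gave 69 to 316 higher and 5 to 41 lower genes: 316 and 41 without control 5, 90 and 6 without control 1, 96 and 41 without control 2, 69 and 9 without control 4, 76 and 5 without ADQ 2, 94 and 5 without ADQ 3, and 80 and 7 without ADQ 4.

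The labels number the samples 1 to 5 in each group but tie no numbers together. Over all genes tested, same-numbered samples had correlations of -0.113 to 0.163 in their deviations from the group means. Only control 3 correlated best with its own number. In the members' median deviation, number 1 was highest (0.34 in control, 0.27 in ADQ) and number 3 lowest (-0.23 and -0.42) in each group. Whether the numbers mark a shared batch or a pairing was not tested. With the replicate number as a block, 392 of 20684 genes were higher and 302 lower. In that fit 90 of 93 members were below 0 and 19 were called. These were 9 members of complex I, 1 assembly factor, 2 members of III, 3 of IV and 4 of V.

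Without 1 library the difference in log2 ratio ran from -0.17 to 0.00 for Ndufa4l2 over Ndufa4, 0.00 to 0.13 for Cox8b over Cox8a and -0.69 to 0.05 for Cox6a2 over Cox6a1, and that of the length slope from 0.039 to 0.104. The difference in marker mean ran from -0.11 to 0.03 for choroidal endothelium and -0.26 to 0.03 for cardiac and slow muscle, and the log2 fold change from -0.02 to 0.10 for Ndufs1 and -0.10 to 0.00 for Sdha.

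Some small values changed sign. By library size alone Ndufaf4 was at 0.05, Cox4i2 at 0.00, Sdha at 0.04 and Atp5a1 at 0.03, and with rod markers Ndufaf4 was at 0.00 and Cox4i2 at 0.01. With the length covariate, then the RPE covariate, the values were 0.02 and 0.05 for Ndufa2, 0.03 and 0.02 for Ndufaf4, 0.11 and 0.14 for Ndufaf8, 0.03 and 0.05 for Uqcr10, 0.09 and 0.10 for Cox4i2, 0.03 and 0.06 for Cox8a, 0.02 and 0.04 for Cox6a1, 0.09 and 0.11 for Cox6b1 and for Cox7a2, 0.05 and 0.06 for Cox7b, 0.17 and 0.20 for Cox8b, -0.08 and -0.05 for Ndufs1 and 0.04 in both for Cox5a; Cox7a2l was at 0.01 with length. The causes were not tested. Levels near 0 CPM (Cox7b2, Cox8c) were too low to test at this depth.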
